A study of Mus musculus with 16 samples.

Results

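The genes described here encode the degradative machinery of the lysosome: 48 genes, chosen by their symbols in the deposited count table of 22287 genes. They comprise 10 proteases, 11 glycosidases and sulfatases, 6 lipid hydrolases and activators, 8 membrane proteins, progranulin, 2 transcription factors and 10 genes of the vacuolar proton pump (V-ATPase). All 48 symbols were found, and all 48 passed the filter on low counts that left 12514 genes for testing. They were measured by RNA-seq in bone marrow derived macrophages (BMDMs), which were grown from the marrow of male C57BL/6J mice of 8 weeks for 7 days with GM-CSF (GM) or M-CSF (M). Each kind was cultured on a tissue-culture-treated dish (TC) or on an untreated dish (noTC). The cells were then left at steady state with vehicle or challenged with LPS, a bacterial ligand of TLR4, for 3 h. This gave 8 groups of 2 libraries each: GM-TC and GM-noTC, M-TC and M-noTC, and the same 4 with LPS (written GM-TC-LPS and so on). Strain, age and culture time were the same in every group, and no allele or transgene was named. The cells are primary macrophages differentiated outside the body.

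Lysosomes break down material delivered by phagocytosis, endocytosis and autophagy. Their soluble hydrolases work at an acidic pH that the V-ATPase maintains, with a membrane-bound V0 sector that conducts protons and a peripheral V1 sector that hydrolyses ATP. Transcription factors of the MiT/TFE family, among them TFEB and TFE3, bind an E-box (CACGTG) within the CLEAR element in the promoters of many lysosomal genes. In macrophages, which are professional phagocytes, cathepsins and the other hydrolases are abundant and take part in the killing of microbes and the processing of antigens.

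Libraries held between 17527802 and 31458363 counts. LPS check genes (Tnf, Il6, Il1b, Cxcl10, Il12b and Ifit1) summed to between 23.9 and 290.2 CPM at steady state and to between 17483 and 20262 CPM upon LPS challenge. Every library thus followed the LPS part of its label, and these genes do not check the growth factor or dish part. All 7 macrophage markers had counts in every group, and their sum lay between 18455 and 44695 CPM. The 7 dendritic cell markers summed to between 794.8 and 1120 CPM in the GM libraries and to between 19.7 and 66.7 CPM in the M libraries. The 8 cardiac muscle markers summed to between 19.0 and 74.7 CPM in TC libraries without LPS and to at most 1.32 CPM in every other library. The GM-TC libraries at steady state differed more than any other pair, with a chi-square per degree of freedom of 12.9 against 1.92 to 5.28. Levels are given as CPM, counts relative to the library total, and are scaled by TMM factors unless library size is named. Sums of markers and of LPS check genes, here and below, are CPM by library size without TMM factors. A member is said to rise or fall, or to be higher or lower, where the BH-adjusted p of edgeR's quasi-likelihood test over all 12514 genes was under 0.05. The study calls the libraries of a group biological replicates, but the labels do not say whether they came from separate mice. The p-values set a difference against the spread between libraries, estimated over all groups, which may not be the spread between mice.

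The E-box that TFEB and TFE3 bind was searched in the promoters of the members, from 250 bases before to 50 bases after the annotated start. RefSeq promoters of GRCm38.p6 were at hand for 41 of the 48 members. The 6 bases CACGTG, which read the same on both strands, were found in 14 of the 41 (34.1%), comparing with 11.7% of the 9905 tested genes and 8.09% of all 27025 genes in the promoter table. With a T before them on either strand (TCACGTG, which contains the 6-base motif) they were found in 13 members (31.7%), comparing with 6.92% of tested genes and 4.29% of all genes. Sequences of windows outside annotated exons are printed because they place the E-boxes of an abundant membrane protein, 4 hydrolases and a pump subunit. They run 5′ to 3′ on the strand of the gene, with the E-box in capitals. The windows are chr8:13159080-13159160 (plus strand) for Lamp1, chrX:134601174-134601252 (minus) for Gla, chr9:114401010-114401055 (plus) for Glb1, chr11:119267803-119267848 (plus) for Gaa, chr7:142388047-142388077 (minus) for Ctsd and chr16:44139365-44139410 (minus) for Atp6v1a.
Lamp1: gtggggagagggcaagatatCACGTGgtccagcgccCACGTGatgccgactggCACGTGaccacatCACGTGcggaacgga
Gla: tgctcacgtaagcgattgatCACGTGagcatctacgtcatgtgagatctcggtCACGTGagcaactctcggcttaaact
Glb1: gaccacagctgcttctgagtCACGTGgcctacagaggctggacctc
Gaa: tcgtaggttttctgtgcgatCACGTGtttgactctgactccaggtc
Ctsd: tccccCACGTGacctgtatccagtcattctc
Atp6v1a: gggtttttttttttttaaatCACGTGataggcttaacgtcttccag
Lamp1, which encodes a major glycoprotein of the lysosomal membrane, held 4 E-boxes within the 81 bases before its start, with first bases at -61, -45, -28 and -15. Gla, Ctsd, Ctsa, Cln3 and Mcoln1 held 2 each. Some of these windows before the start lay wholly in annotated exons, so other annotated transcripts cover them. They were those of Cln3 (74 bases) and Ctsa (32 bases) and the Ctsd window from -118 to -73 (46 bases). Of the 50 promoters of members, 40 matched a GENCODE transcript just after the start, and that of Lgmn with its E-box did not. Ctsl held the 6 bases without the preceding T. A match describes these letters only and is not a measured binding site.

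**Figure D1:**
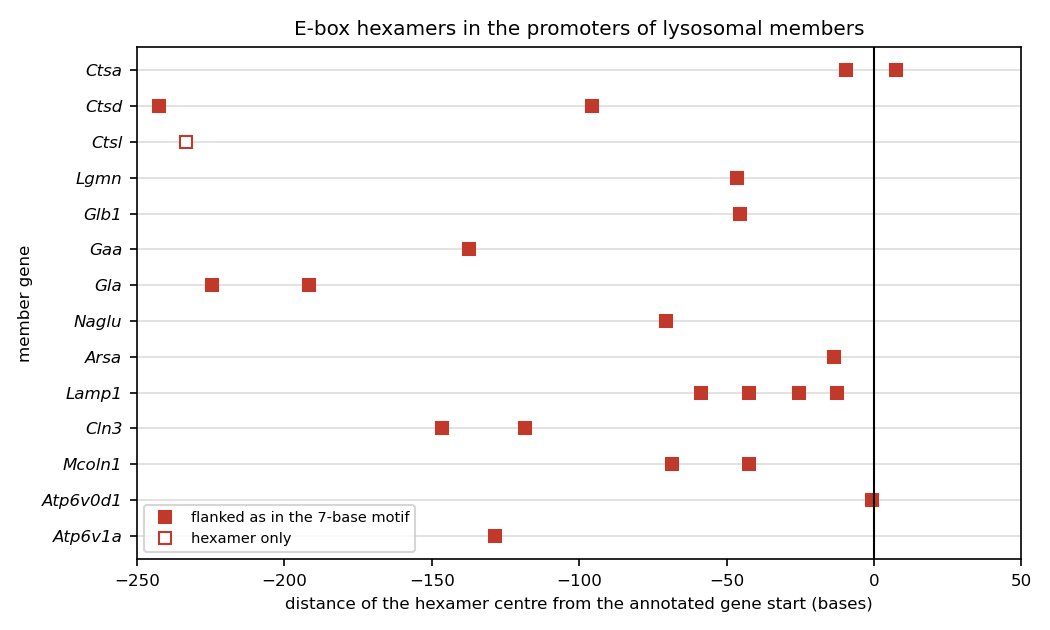
Positions of CACGTG in the promoters of the 14 members that hold it, as the distance of its centre from the annotated gene start in bases. Filled squares have the T of the 7-base motif on at least 1 strand and the open square (Ctsl) does not. Lamp1 carries 4 matches close to the start, and matches in the other genes are spread over the window.

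The responses of members with and without TCACGTG are given as medians, a description with no test. Upon LPS challenge of M-TC cells (all genes: 37.6% rose and 36.4% fell) the 13 members with it had 0.07 as their median log2 fold change, with 5 rising and 2 falling. The 28 members without it had a median of 0.21, with 16 rising and 5 falling. For GM comparing with M on TC the medians were 0.10 and 0.33, and the members with it also had the lower median in the other LPS and growth factor comparisons. Between dishes the medians were closer, at -0.12, -0.04, -0.08 and -0.09 with it and -0.09, -0.05, -0.07 and -0.08 without it in GM, GM-LPS, M and M-LPS. Tfeb, Ctsc and Atp6v1e1, the 3 members with the largest median LPS changes in either direction, had no E-box in the window searched, and Cln3 had 2.

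Lysosomal transcripts made up a large share of the mRNA of these cells. The 48 members took 9.21% ± 0.19 (SD, n = 2) of all counts in GM-TC and 8.75% ± 0.02 in GM-noTC. They took 7.03% ± 0.08 in M-TC and 6.61% ± 0.08 in M-noTC. Upon LPS challenge their share was 6.69% ± 0.14 in GM-TC and 6.41% ± 0.21 in GM-noTC. In M cells it was 4.54% ± 0.16 on TC and 4.52% ± 0.15 on noTC. The share was lower with LPS than without in each of the 4 pairs of groups, with no overlap of libraries, and this difference in share was not tested. The summed TMM-scaled CPM was not lower, at 82319 without and 83370 with LPS for GM-TC, and 50579 and 57953 for M-TC. In bulk RNA, fewer cells that express a gene and less of its RNA per cell cannot be told apart. TMM factors lay above 1 in the steady state libraries and below 1 in the LPS libraries, and the scales differ by these factors. Per kilobase of exon and averaged over 16 libraries, Ctsd (cathepsin D, an aspartyl protease) had the highest level at 5395 CPM per kb. It was followed by Psap (prosaposin, the precursor of sphingolipid activators) at 3475, Ctss (cathepsin S) at 3005, Ctsb (cathepsin B) at 1604 and Gpnmb (a membrane glycoprotein of the lysosome) at 1415 CPM per kb. These 5 genes held 70.3% of the summed level per kb. Tfeb had the lowest mean level at 2.49 CPM per kb, 2168-fold below Ctsd, and Mcoln1 (the TRPML1 calcium channel) followed at 5.68. That mean includes the LPS libraries, where Tfeb was low. In the steady state groups Tfeb held 3.55 to 5.75 CPM per kb, and in GM-TC Arsb was lower at 4.46. Median levels per kb were 222.9 for proteases, 143.7 for lipid hydrolases and activators, 81.7 for the V-ATPase, 71.0 for membrane proteins and 29.0 for glycosidases and sulfatases.

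**Figure D2:**
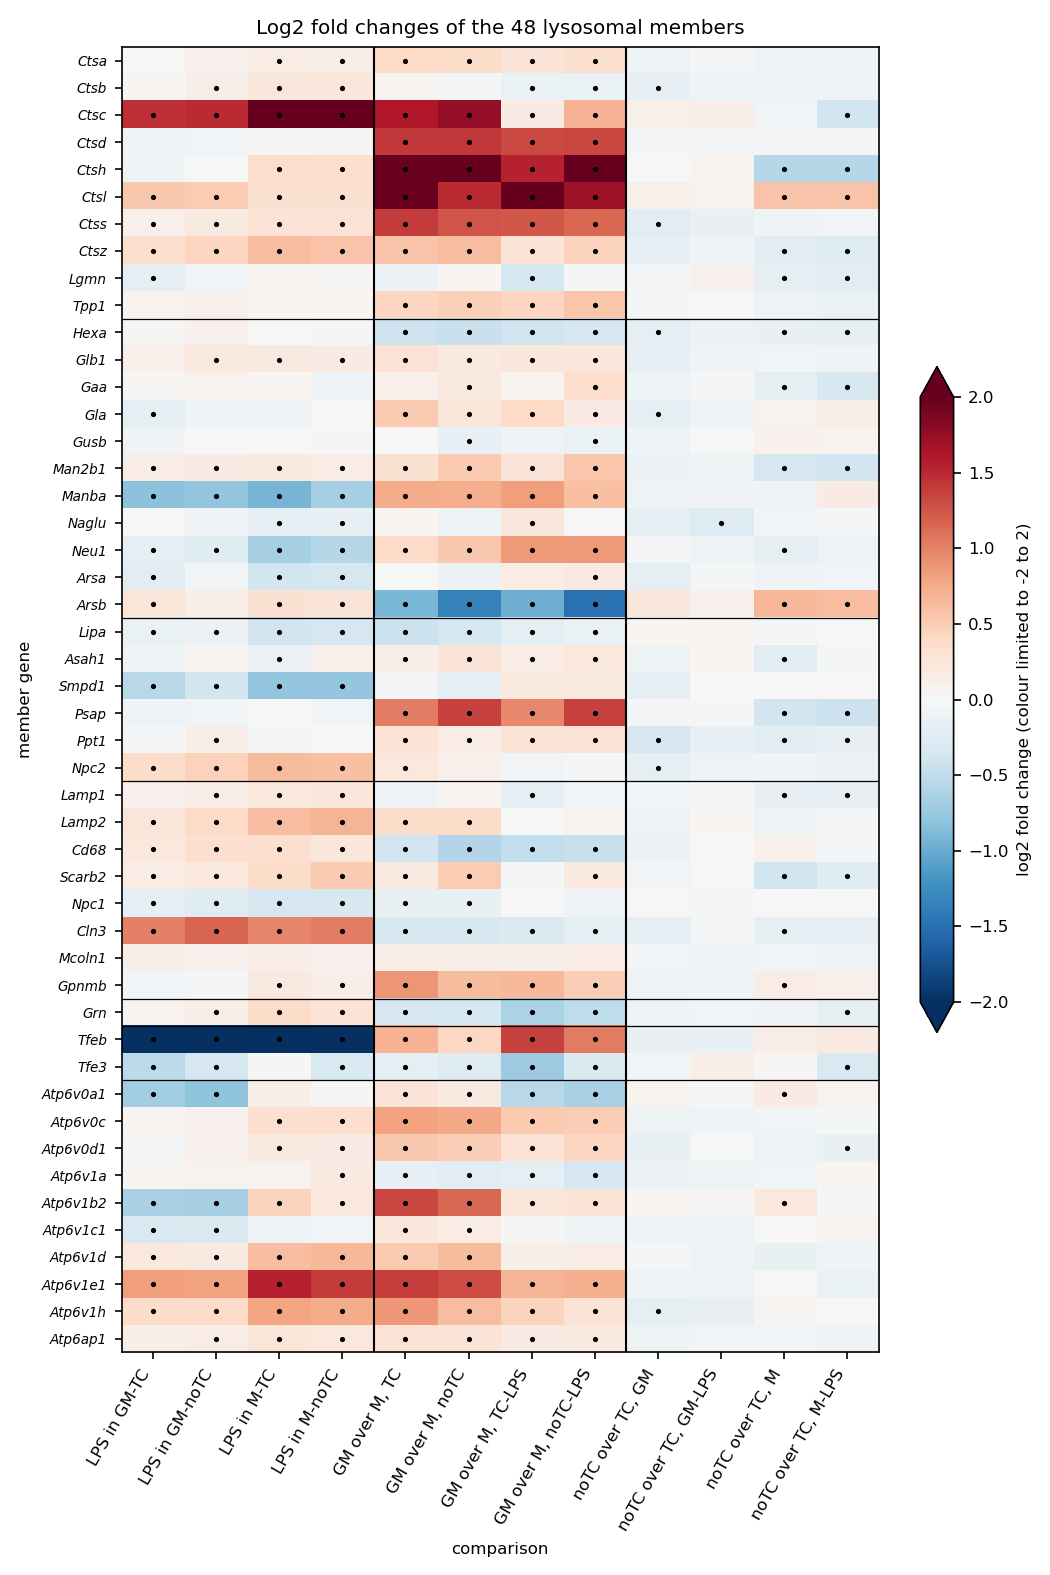
Log2 fold changes of the 48 members (rows, in the 7 groups by role, separated by lines) in 12 comparisons (columns): 4 of LPS against vehicle, 4 of GM over M and 4 of noTC over TC. Colours stop at -2 and 2, and a dot marks a BH-adjusted p under 0.05. Tfeb is blue in all 4 LPS columns, and the dish columns are pale. In each GM over M column 8 of the 10 proteases are red with a dot. So are 9 of the 10 V-ATPase genes at steady state, Atp6v1a being blue.

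On the TMM scale the members moved in both directions upon LPS challenge, as all genes did, and few moved far. In GM-TC cells 14 members rose and 13 fell (all genes: 32.8% rose and 34.2% fell). In GM-noTC cells 19 rose and 10 fell (33.6% and 34% of all genes). In M-TC cells 25 rose and 9 fell (37.6% and 36.4%), and in M-noTC cells 26 rose and 9 fell (36.4% and 35.9%). Medians of the members were 0.02, 0.09, 0.16 and 0.14 on the log2 scale, in the same order, and those of all genes were -0.05, -0.03, -0.01 and -0.01. With a fold change above 1.5 and an unadjusted p under 0.05 as the threshold, 3 members were up and 4 down in GM-TC (20.1% and 22.3% of all genes) and 3 and 4 in GM-noTC (19.8% and 22%). In M cells 8 were up and 4 down on TC (25% and 27.2%) and 7 and 3 on noTC (22.8% and 25.5%). Thus 13 members rose in all 4 comparisons and 6 fell in all 4 (25% and 22.7% of all genes). Ctsd, Tpp1, Hexa, Gaa, Gusb, Psap and Mcoln1 passed the test in none. The number that rose in GM-noTC was 11 without GM-noTC-LPS replicate 2, and the number that fell in GM-TC was 8 in a fit to its 4 libraries alone.

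The direction of most LPS changes depended on the scale. With library size only, the median of all genes moved to -0.53 and -0.54 in GM cells (TC and noTC) and to -0.83 and -0.73 in M cells. Then 3 members rose in each comparison and 44, 42, 44 and 42 fell. Of all genes 17.2%, 16.4%, 16.3% and 16.1% rose and 62.7%, 63.8%, 69.1% and 68.5% fell on this scale. The distance of the members' median from that of all genes was almost the same on both scales, 0.07 and 0.07 for GM-TC, 0.17 and 0.17 for M-TC. Ctsc, Cln3 and Atp6v1e1 rose on both scales in all 4 comparisons, and Tfeb, Manba, Neu1, Lipa, Smpd1 and Npc1 fell on both scales in all 4. With library size, sums of the 7 macrophage markers were lower with LPS too, at 35073.5 to 36920.1 CPM against 41979.9 to 44695 in GM cells. In M cells they were 18455 to 22863 against 27025 to 34187 CPM. These sums were not scaled by TMM factors, so their direction is given for library size only. The part of these markers in the changes was not tested. Changes below are TMM scaled, that is, relative to the middle of all genes, and a rise of any member other than those 3 did not hold in all 4 comparisons with library size.

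**Figure D3:**
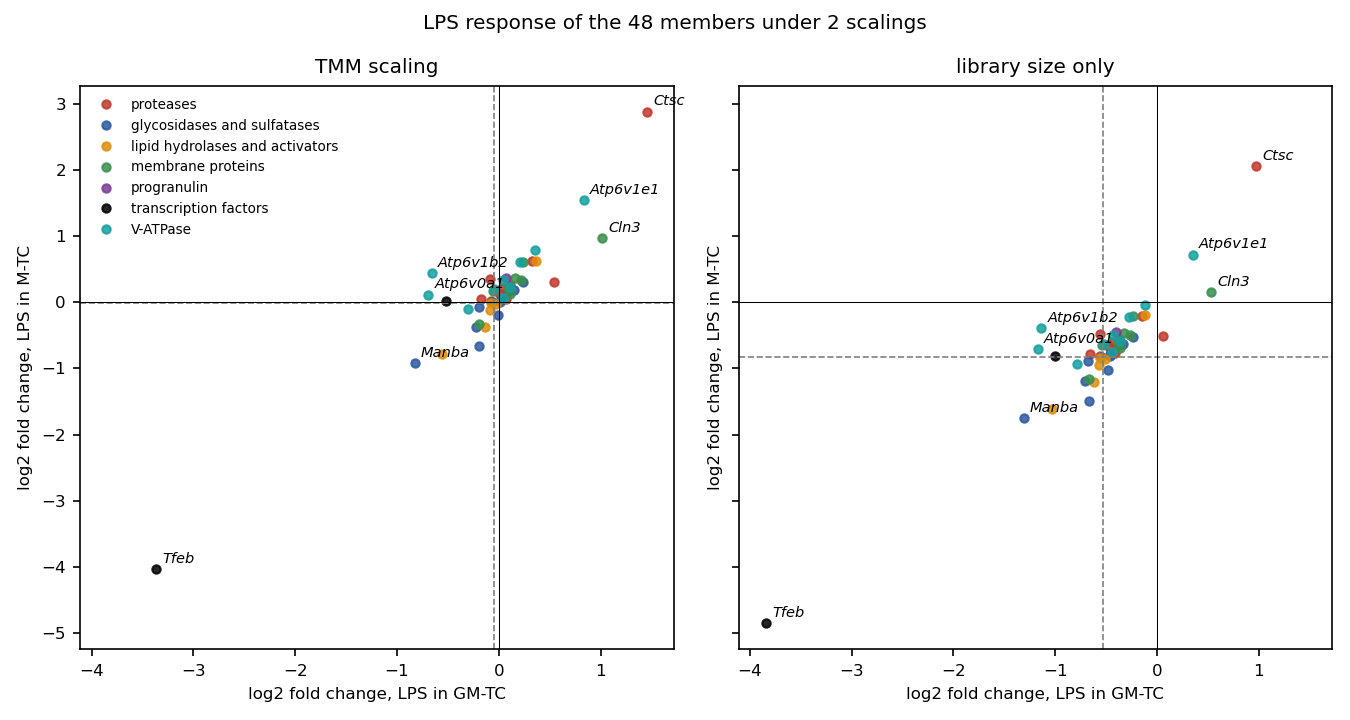
Log2 fold change upon LPS challenge in GM-TC (horizontal) and M-TC (vertical) for the 48 members, coloured by role, with TMM scaling (left) and library size only (right). Dashed lines mark the median of all 12514 genes and solid lines mark 0. The cloud moves from around 0 to below 0 on both axes, while Ctsc, Atp6v1e1 and Cln3 stay above 0 and Tfeb stays far below.

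Tfeb, the gene of a main transcriptional regulator of lysosomal genes (GRCm38 chr17:47737030-47792419, plus strand), fell furthest. Its libraries held 32.8 and 32.3 CPM in GM-TC and 3.21 and 3.11 CPM in GM-TC-LPS. On the noTC dish they held 28.9 and 29.9 without and 2.75 and 2.96 with LPS. In M cells the values were 20.2 and 20.1 against 1.28 and 1.16 on TC and 22.7 and 21.5 against 1.75 and 1.05 on noTC. All 8 LPS libraries lay far below all 8 steady state libraries. Log2 fold changes were -3.37 ± 0.12 (SE) and -3.36 ± 0.12 in GM cells (TC and noTC) and -4.03 ± 0.15 and -3.98 ± 0.14 in M cells, with adjusted p between 5.96e-17 and 1.46e-16. Its relative Tfe3 moved less. It fell in GM-TC (-0.52, adjusted p = 1.14e-07), GM-noTC (-0.33) and M-noTC (-0.30). In M-TC its log2 fold change was 0.02 (adjusted p = 0.751), and this value was -0.80 with library size. Tfe3 libraries held 90.8 and 91.6 CPM in GM-TC, 64.8 and 62.3 in GM-TC-LPS, 105 and 102 in M-TC and 111 and 98.4 in M-TC-LPS.

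Other MiT/TFE genes moved the other way. Tfec, a family member expressed in myeloid cells, rose upon LPS challenge in all 4 comparisons. It held 109.7 and 113 CPM in GM-TC and 211 and 223 in GM-TC-LPS. In M-TC it held 19.1 and 17.2 CPM and in M-TC-LPS 300.4 and 306 CPM, a log2 fold change of 4.07 ± 0.06 (adjusted p = 3.88e-23). Mitf, named here after its values were seen, rose by 0.94 and 1.06 on the log2 scale in GM cells (TC and noTC) and by 1.83 and 1.76 in M cells. With library size the log2 ratios of the group means were also above 0 for both genes, from 0.48 to 3.24 for Tfec and from 0.45 to 1.03 for Mitf.

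Of the 10 proteases, 4 rose in GM-TC, 5 in GM-noTC and 7 in each of M-TC and M-noTC, and 1 fell, Lgmn (legumain, an asparaginyl endopeptidase), in GM-TC. Over all genes 32.8% to 37.6% rose and 34% to 36.4% fell. With library size 1 protease rose in each comparison and 8, 7, 9 and 9 fell. Ctsc (cathepsin C, which activates serine proteases of granules; GRCm38 chr7:88278085-88310888, plus strand) rose furthest. Its libraries held 635 and 657 CPM in GM-TC and 1767 and 1774 in GM-TC-LPS. In M cells they held 211 and 216 in M-TC and 1523 and 1633 in M-TC-LPS, and on noTC 205 and 205 without and 1146 and 1244 with LPS. GM-noTC libraries held 697 and 684 without and 1902 and 1969 with LPS. The log2 fold changes were 1.45 ± 0.05 and 1.49 ± 0.05 in GM cells (TC and noTC) and 2.88 ± 0.05 and 2.54 ± 0.05 in M cells, and no LPS library overlapped a steady state library. Ctsl (cathepsin L), Ctss and Ctsz (cathepsin Z, a carboxypeptidase) rose in all 4, by 0.31 to 0.54, 0.11 to 0.29 and 0.33 to 0.62 on the TMM scale. With library size the log2 fold changes of Ctss and Ctsz were below 0 in all 4, and that of Ctsl was 0.06 and 0.01 in GM and -0.51 and -0.42 in M. Ctsd, the most abundant member, had TMM log2 fold changes between -0.08 and 0.03 that did not pass the test, and its libraries held 18449 and 19536 CPM in GM-TC and 18393 and 17649.5 in GM-TC-LPS.

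Glycosidases, sulfatases, lipid hydrolases and activators, 17 of the 48 members, supplied 6 of the 13 members that fell in GM-TC. They supplied 4 of 10 in GM-noTC, and 7 of 9 and 6 of 9 in M-TC and M-noTC. In the same order 36.4%, 18.2%, 36.4% and 36.4% of the 11 glycosidases and sulfatases fell. Of the 6 lipid genes 33.3%, 33.3%, 50% and 33.3% fell. The shares of all genes were 34.2%, 34%, 36.4% and 35.9%, and no excess over them is claimed. These counts depended on the scale. With library size all 11 glycosidases and sulfatases fell in each comparison, as did 6, 5, 6 and 6 of the 6 lipid genes. They were among 44, 42, 44 and 42 falling members. Manba (beta-mannosidase) held 91.2 and 82.5 CPM in GM-TC, 47.5 and 50.2 in GM-TC-LPS, 49.9 and 53.6 in M-TC and 28.8 and 25.7 in M-TC-LPS. Its log2 fold changes were -0.83 ± 0.07 and -0.79 in GM cells (TC and noTC) and -0.92 ± 0.08 and -0.67 in M cells. On noTC it held 77.8 and 83.2 without and 45.5 and 47.3 with LPS in GM, and 49.7 and 47.96 and 31.7 and 29.8 in M. The groups did not overlap in any of the 4.
Neu1 (sialidase 1) held 103 and 111 CPM in GM-TC and 93.1 and 94.3 in GM-TC-LPS, and in M cells 84.3 and 80.6 in M-TC and 51.1 and 52.8 in M-TC-LPS. It fell by 0.67 on the log2 scale in M-TC and by 0.19 in GM-TC, a call that was lost without GM-TC replicate 2 (adjusted p = 0.072) or GM-TC-LPS replicate 1 (0.055) and in a fit to the 4 libraries alone (0.066). In GM-noTC the log2 fold change of -0.25 lost its call without GM-noTC-LPS replicate 1 (adjusted p = 0.063). Smpd1 (acid sphingomyelinase) held 27.9 and 28.2 CPM in GM-TC and 17.5 and 20.6 in GM-TC-LPS. M cells held 28.9 and 28.4 in M-TC against 18.3 and 14.8 in M-TC-LPS. Its log2 fold changes were -0.56 ± 0.10 and -0.79 ± 0.10, and -0.37 in GM-noTC, where the call was lost without GM-noTC-LPS replicate 1 (adjusted p = 0.091). Lipa (lysosomal acid lipase) fell by 0.14 and 0.11 in GM-TC and GM-noTC and by 0.37 and 0.34 in M-TC and M-noTC. Arsa (arylsulfatase A) fell in GM-TC, M-TC and M-noTC. Naglu fell in M-TC and M-noTC, by 0.20 and 0.16, Gla in GM-TC by 0.19, and Asah1 (acid ceramidase) in M-TC by 0.11. Glb1 (beta-galactosidase) rose in 3 comparisons, all but GM-TC, by 0.17 to 0.20, and Ppt1 in GM-noTC by 0.13, and with library size all of these were below 0. Man2b1 (alpha-mannosidase) rose in all 4 by 0.15 to 0.19 and Arsb (arylsulfatase B) in 3, and both were below 0 with library size. Npc2, a carrier of cholesterol in the lysosomal lumen, held 789 and 861 CPM in GM-TC and 1083 and 1046 in GM-TC-LPS. It held 701 and 718 in M-TC and 1102 and 1097 in M-TC-LPS. It rose in all 4 by 0.37 to 0.63 and was between -0.19 and -0.05 with library size.

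Of the 8 membrane proteins, 4 rose in GM-TC, 5 in GM-noTC and 6 in each of the M comparisons on the TMM scale (32.8%, 33.6%, 37.6% and 36.4% of all genes), and 1 fell in each. With library size Cln3 alone rose and 7, 7, 7 and 6 fell. Npc1 fell in all 4 on both scales. Cln3, the gene of the membrane protein battenin, held 45.6 and 50.7 CPM in GM-TC, 99.4 and 95.3 in GM-TC-LPS, 59.1 and 61.5 in M-TC and 122 and 115 in M-TC-LPS. It rose by 1.01 ± 0.06 and 1.16 ± 0.06 on the log2 scale in GM cells (TC and noTC) and by 0.98 ± 0.06 and 1.02 ± 0.06 in M cells. Every LPS library lay above every steady state library. Npc1, which exports cholesterol from the lysosome together with Npc2, held 319 and 294 CPM in GM-TC, 271 and 267 in GM-TC-LPS, 341 and 343 in M-TC and 284 and 258 in M-TC-LPS, and fell by 0.19 to 0.33. Its call in GM-TC was lost in a fit to the 4 libraries alone (-0.18, adjusted p = 0.057). Lamp1 was close to level on the TMM scale, at 2538 and 2634 CPM in GM-TC, 2754 and 2762 in GM-TC-LPS, 2721 and 2702 in M-TC and 3191 and 3091 in M-TC-LPS. It rose in GM-noTC (0.13), M-TC (0.21) and M-noTC (0.23), and fell by 0.38 to 0.61 in all 4 with library size. The GM-noTC call was lost without GM-noTC replicate 2 (adjusted p = 0.053) or GM-noTC-LPS replicate 2 (0.239). Lamp2, Scarb2 (LIMP-2, which carries glucocerebrosidase to the lysosome) and the macrophage marker Cd68 rose in all 4 on the TMM scale, by up to 0.68, 0.52 and 0.34, and were below 0 with library size. Grn (progranulin) rose in GM-noTC, M-TC and M-noTC by 0.13, 0.37 and 0.28, and was below 0 with library size. Gpnmb rose in M-TC (0.17) and M-noTC (0.13) and fell there by 0.65 and 0.60 with library size. The first of these calls was lost without M-TC-LPS replicate 1, and the second without M-noTC replicate 1 or M-noTC-LPS replicate 1.

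The V-ATPase genes did not move as a unit. In GM-TC 3 of the 10 rose and 3 fell, in GM-noTC 4 rose and 3 fell, and in M-TC and M-noTC 7 and 8 rose and none fell on the TMM scale (37.6% and 36.4% of all genes rose). With library size Atp6v1e1 alone rose in each comparison and 9, 9, 8 and 7 fell. Atp6v1e1 (subunit E1 of the V1 stalk) held 288 and 302 CPM in GM-TC, 525 and 526 in GM-TC-LPS, 110.1 and 115 in M-TC and 321 and 337 in M-TC-LPS. It rose by 0.83 ± 0.05 and 0.80 ± 0.05 on the log2 scale in GM cells (TC and noTC) and by 1.55 ± 0.05 and 1.41 ± 0.05 in M cells. Atp6v1h (the regulatory subunit H) held 141 and 147 CPM in GM-TC against 184 and 186 in GM-TC-LPS. M cells held 80.6 and 76.6 in M-TC against 133 and 139 in M-TC-LPS. It rose by 0.36 to 0.79 and lay between -0.12 and 0.01 with library size. Atp6v1d (subunit D of the rotor) rose in all 4 by 0.18 to 0.67 on the TMM scale and was below 0 with library size.
Atp6v1b2, the ATP-binding subunit B2 of V1 (GRCm38 chr8:69088646-69113711, plus strand), went in opposite directions in GM and M cells on the TMM scale. It held 1161 and 1188 CPM in GM-TC and 749 and 742 in GM-TC-LPS, but 465 and 468 in M-TC and 630.2 and 633 in M-TC-LPS. On noTC it held 1215 and 1189 without and 742 and 771 with LPS in GM, and 541 and 540.4 and then 626 and 622 in M. Log2 fold changes were -0.66 ± 0.04 and -0.67 ± 0.04 in GM-TC and GM-noTC and 0.44 ± 0.04 and 0.21 ± 0.04 in M-TC and M-noTC. With library size it fell in all 4, by 1.14 and 1.18 in GM and by 0.39 and 0.52 in M. Atp6v0a1 (the a1 subunit of V0) held 283 and 269 in GM-TC and 167 and 174 in GM-TC-LPS, against 228 and 233 in M-TC and 257 and 242 in M-TC-LPS. It fell in GM by 0.69 and 0.80, while the M values of 0.11 and 0.03 did not pass the test. Atp6v1c1 (subunit C1) also fell in both GM comparisons, by 0.30 in each, with M values of -0.10 and -0.06.

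**Figure D4:**
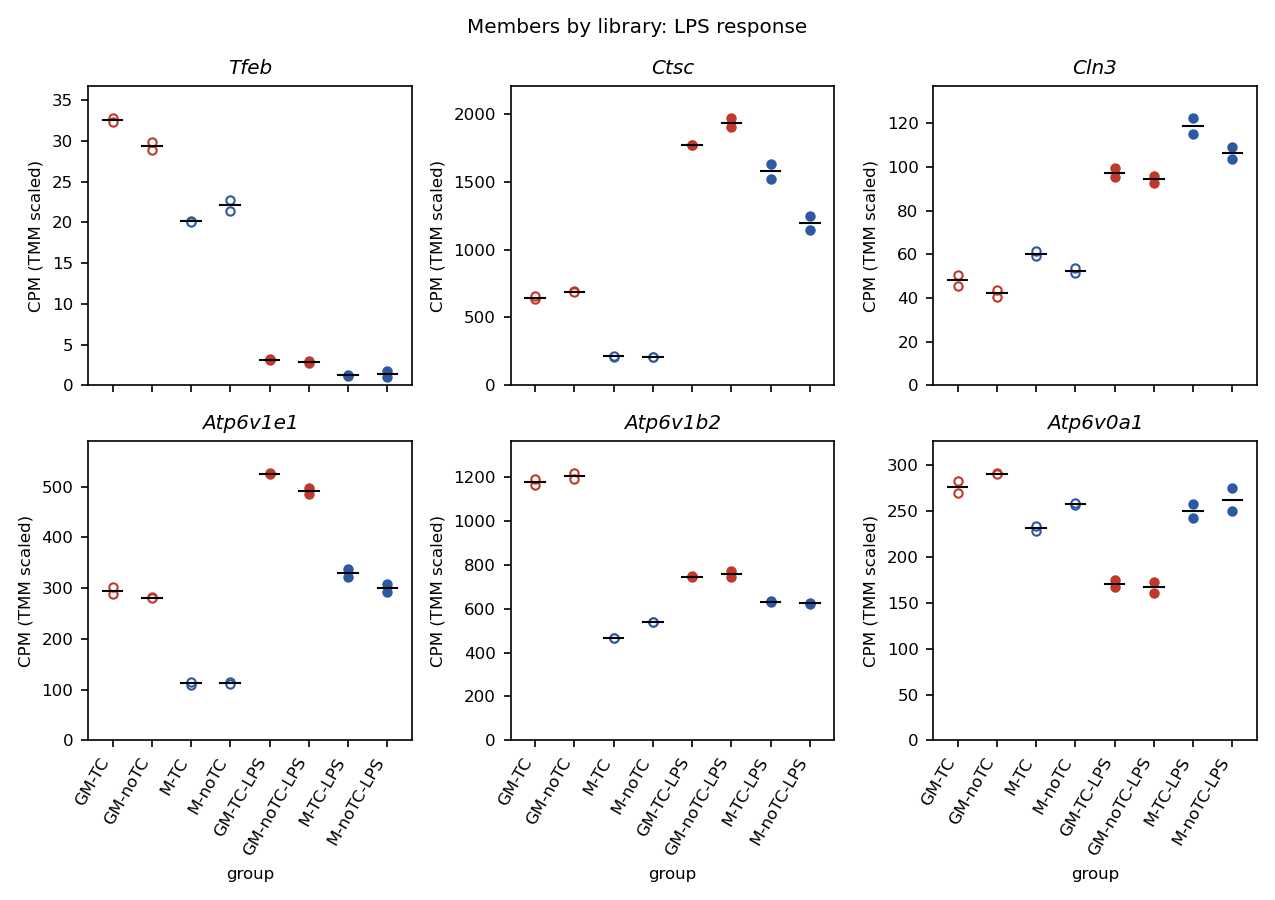
TMM-scaled CPM of 6 members in each of the 16 libraries (points, 2 per group) with group means (bars), GM in red and M in blue, steady state open and LPS filled, each axis from 0. Tfeb drops to between 1.05 and 3.21 CPM in the LPS libraries, Ctsc, Cln3 and Atp6v1e1 are higher there, and Atp6v1b2 drops in GM and not in M on this scale.

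Whether the LPS response differed between growth factors was tested as the GM log2 fold change minus the M one. On TC, 4 members had a positive and 19 a negative difference (17.8% and 23.3% of all genes), and on noTC 6 and 11 (16.9% and 19.3%). With library size these splits were 30 and 4 on TC (39.1% and 10.4% of all genes) and 19 and 5 on noTC (30.0% and 11.0%). The V-ATPase supplied 8 of the 19 on TC and 7 of the 11 on noTC, with none positive on the TMM scale. Ctsc had the largest negative difference, -1.43 ± 0.07 on TC (adjusted p = 4.04e-13) and -1.06 ± 0.07 on noTC. Next came Atp6v1b2, at -1.09 ± 0.06 and -0.88 ± 0.06, and Atp6v0a1, at -0.81 ± 0.08 and -0.83 ± 0.08. These 3 differences kept their sign and their call with library size, at -1.08 and -0.84, -0.75 and -0.66, and -0.46 and -0.61. Tfeb had a positive difference, 0.67 ± 0.23 and 0.62 ± 0.22, on counts close to the lower end in the LPS libraries. Its calls were lost with DESeq2 (adjusted p = 0.054 and 0.071), and on noTC the difference was 0.29 without M-noTC-LPS replicate 2 (adjusted p = 0.471). On TC the Tfeb call was also lost without either library of GM-TC-LPS or of M-TC-LPS, and on noTC without GM-noTC replicate 1, M-noTC replicate 1 or either library of GM-noTC-LPS.

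Most cathepsins were higher in GM than in M cells with and without LPS, and so were most pump genes on the TMM scale. At steady state 30 members were higher and 9 lower on TC (32.6% and 28.9% of all genes), and 30 and 10 on noTC (31.4% and 30.7%). Upon LPS challenge 25 were higher and 12 lower on TC (33.9% and 32.9%) and 27 and 11 on noTC (33.5% and 32.6%). Medians of the members were 0.28, 0.25, 0.17 and 0.20 and those of all genes 0.02, 0, 0.03 and 0.02. At the 1.5-fold threshold 13 members were higher and 1 lower on TC (19.3% and 15.1%), 14 and 1 on noTC (18.5% and 16.3%), 10 and 3 on TC-LPS (23% and 18.6%) and 10 and 2 on noTC-LPS (22% and 18.4%). In all 4 comparisons 24 members were higher and 8 lower (17.5% and 16.3% of all genes). With library size the steady state splits were 17 higher and 20 lower on TC and 19 and 19 on noTC. On this scale 19.6% of all genes were higher and 50.8% lower on TC, and 19.7% and 52.1% on noTC. The median of all genes was -0.29 on both dishes. On both scales 14 members were higher in all 4 and 8 were lower in all 4, and the matching share of all genes was not counted. Among the 14 were Ctsc, Ctsd, Ctsh, Ctsl, Ctss, Ctsz, Psap and Gpnmb. GM libraries also held the higher sums of dendritic cell markers given above. All 7 of these markers exceeded the floor of 3 counts in every GM group, and Flt3 was at or under it in every M group. Neutrophil and progenitor markers summed to 8.73 to 18.6 CPM in GM against 0.111 to 0.432 in M libraries, with 5 or 7 of the 7 at or under the floor in the M groups. Mast cell and basophil markers summed to 16.6 to 39.8 against 2.58 to 11.4 CPM, with 2 of the 6 at or under the floor in GM groups and 5 in M groups. Fibroblast markers summed to 12.9 to 29.5 against 1.54 to 6.31 CPM, with at most 2 of the 6 at or under the floor in any group. The part of these markers in the differences was not tested.

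Among the proteases, 8 of 10 were higher in GM in each of the 4 comparisons (31.4% to 33.9% of all genes), and 6 to 8 with library size (19.6% to 35.5%). Ctsh (cathepsin H, an aminopeptidase; GRCm38 chr9:90054152-90076089, plus strand) held 375 and 412 CPM in GM-TC against 103 and 98.5 in M-TC, and on noTC 396 and 383 against 66.1 and 69.0. Upon challenge it held 365 and 378 against 127 and 129 on TC, and 391 and 389.7 against 84.1 and 87.3 on noTC. The log2 fold changes of GM over M were 1.97 ± 0.05, 2.53 ± 0.06, 1.54 ± 0.05 and 2.19 ± 0.06 on TC, noTC, TC-LPS and noTC-LPS. Every GM library lay above every M library.
Ctsl held 1338 and 1472 CPM in GM-TC against 361 and 364 in M-TC, and on noTC 1520.3 and 1500.5 against 542 and 536. Its log2 fold changes were 1.95, 1.49, 2.18 and 1.69 in the same order. Ctsd held 18449 and 19536 in GM-TC against 7046 and 7186 in M-TC, and on noTC 18506 and 18407 against 6810.5 and 6972, with log2 fold changes from 1.32 to 1.42. Ctss, the cathepsin that trims the invariant chain of MHC class II, held 5616 and 6205 in GM-TC against 2244 and 2219.6 in M-TC, with log2 fold changes from 1.15 to 1.41. Ctsc was 1.60 and 1.75 higher on the log2 scale at steady state and 0.17 and 0.70 higher upon challenge, and it rose more in M cells. Ctsb, by contrast, held 9461 and 10031 CPM in GM-TC against 9333 and 9502 in M-TC (0.05, adjusted p = 0.364).

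Psap held 13570.0 and 13808 CPM in GM-TC, 6661 and 6807 in M-TC, 13396 and 13241 in GM-noTC and 5075 and 5244 in M-noTC. It was higher in GM by 1.02 ± 0.04, 1.37 ± 0.04, 0.96 ± 0.04 and 1.37 ± 0.04 on TC, noTC, TC-LPS and noTC-LPS. Gpnmb held 11684 and 12021 in GM-TC against 6351 and 6508 in M-TC, with log2 fold changes from 0.49 to 0.88. Of the V-ATPase genes, 9 of 10 were higher at steady state on both dishes (32.6% and 31.4% of all genes), led by Atp6v1e1 (1.39 and 1.31) and Atp6v1b2 (1.33 and 1.15). With library size 6 were higher on each dish (19.6% and 19.7% of all genes). In the LPS groups 6 were higher and 2 lower on each dish (33.9% and 32.9% of all genes on TC, 33.5% and 32.6% on noTC). Upon challenge Atp6v1b2 was higher by 0.24 and 0.28, and Atp6v0a1 was lower (-0.55 and -0.65). Atp6v1a, the catalytic subunit A, was lower in GM in all 4 (-0.17, -0.23, -0.19 and -0.34).
Tfeb was higher in GM by 0.69 on TC and 0.42 on noTC, and by 1.36 and 1.04 upon challenge. The noTC value was 0.13 with library size (adjusted p = 0.177). Tfe3 was lower in GM in all 4, from -0.72 to -0.18. The TC steady state call was lost without M-TC replicate 1 (adjusted p = 0.050).

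Of the members that were lower in GM, Arsb stood apart (GRCm38 chr13:93771630-93943016, plus strand). It held 27.0 and 26.9 CPM in GM-TC, 49.2 and 52.0 in M-TC, 32.3 and 30.5 in GM-noTC and 81.03 and 78.7 in M-noTC. Upon challenge it held 32.5 and 31.2 in GM-TC-LPS, 62.7 and 62.8 in M-TC-LPS, 32.4 and 35.5 in GM-noTC-LPS and 99.99 and 91.7 in M-noTC-LPS. The log2 fold changes were -0.91 ± 0.07, -1.35 ± 0.06, -0.98 ± 0.07 and -1.50 ± 0.07, with no overlap. Cd68 held 753 and 806 in GM-TC against 1014 and 1009.9 in M-TC, and on noTC 714 and 719 against 1041 and 1105, with log2 fold changes from -0.58 to -0.38. Grn held 1294 and 1364 in GM-TC against 1651 and 1689 in M-TC, with log2 fold changes from -0.63 to -0.33. Hexa, the alpha subunit of beta-hexosaminidase, held 537 and 560.5 in GM-TC against 723 and 734 in M-TC, with log2 fold changes from -0.44 to -0.34. Cln3 had log2 fold changes from -0.32 to -0.17, and its call in the noTC-LPS comparison was lost without GM-noTC-LPS replicate 1 (adjusted p = 0.097) or M-noTC-LPS replicate 2 (0.128). Lamp1 was lower in GM on TC upon challenge (-0.19), and its noTC steady state value of 0.04 was -0.25 with library size. The 11 members that were lower on noTC upon challenge numbered 7 without GM-noTC-LPS replicate 1.

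**Figure D5:**
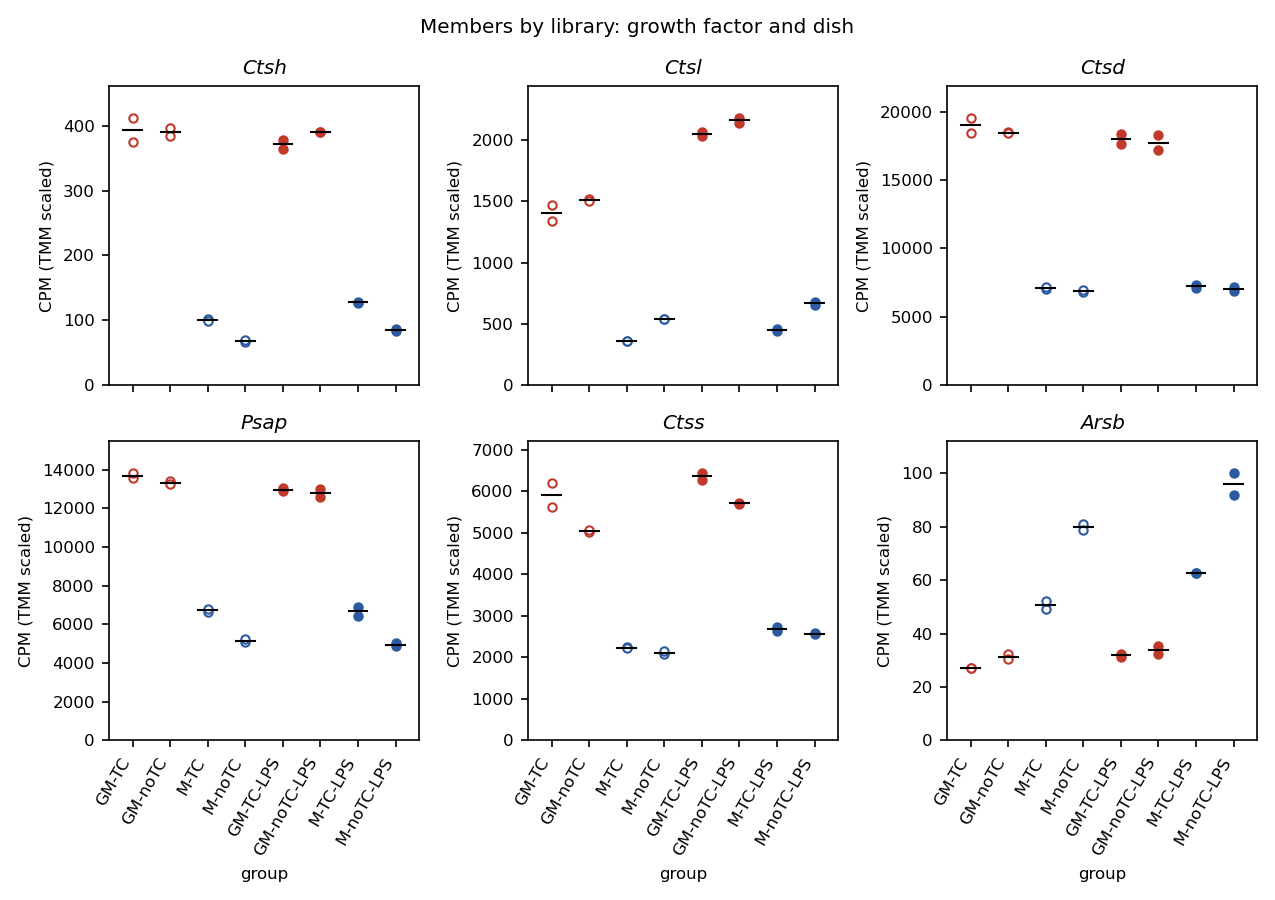
TMM-scaled CPM of 6 members in each of the 16 libraries (points, 2 per group) with group means (bars), GM in red and M in blue, steady state open and LPS filled, each axis from 0. Ctsh, Ctsl, Ctsd, Psap and Ctss are higher in every GM group, Arsb is higher in every M group, and the M-noTC groups differ from the M-TC groups in Ctsh, Ctsl, Psap and Arsb.

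The dish changed few members in GM cells and more in M cells. Comparing GM-noTC with GM-TC, no member was higher and 7 were lower (4.69% and 2.85% of all genes), and upon challenge none was higher and 1 lower (2.08% and 0.727%). At an unadjusted p under 0.05, 2 members were higher in each of these comparisons, and DESeq2 called none higher in either. None of the 48 passed the 1.5-fold threshold in GM at steady state (3.09% higher and 1.65% lower of all genes) or upon challenge (1.63% and 0.951%). Comparing M-noTC with M-TC, 5 were higher and 13 lower (16.1% and 11.1%), and upon challenge 2 and 14 (10.4% and 12.9%). No member passed the test in the same direction in all 4 dish comparisons, and few of all genes did (0.447% higher and 0.0799% lower). The medians of the members were -0.10, -0.04, -0.07 and -0.07 in GM, GM-LPS, M and M-LPS, and those of all genes 0, 0.0035, 0.011 and -0.00022.
The GM steady state count depended on single libraries: 16 members were lower without GM-TC replicate 1, 2 (and 1 higher) without GM-TC replicate 2, 1 without GM-noTC replicate 1, 3 without GM-noTC replicate 2 and 1 in a fit to the 4 libraries alone. All 8 cardiac muscle markers exceeded the floor in the TC groups at steady state, and 5 or 6 of the 8 were at or under it in every other group. Other markers moved with the dish as well. In M cells the dendritic cell markers summed to 22.2 to 23.8 CPM on TC and 66.3 to 66.7 on noTC, and to 19.7 to 21.1 and 48.2 to 53.1 upon challenge, with 1 or 2 of the 7 at or under the floor in each group. The 7 macrophage markers summed to 33546 to 34187 CPM in M-TC and 27025 to 28239.5 in M-noTC, and to 21989.9 to 22863 and 18455 to 19340.3 upon challenge. In GM cells at steady state fibroblast markers summed to 27.3 to 27.8 CPM on TC and 18.0 to 19.97 on noTC, and LPS check genes to 23.9 to 25.9 and 132 to 139. The part of all these markers in the dish differences was not tested.

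In M cells Arsb, Ctsl and Ctsh had the largest dish differences, both with and without LPS. Arsb was higher on noTC by 0.66 ± 0.06 at steady state (adjusted p = 4.48e-08) and 0.61 ± 0.06 upon challenge, the only member past the 1.5-fold threshold in either (all genes: 6.2% higher and 3.12% lower at steady state, 4.79% and 2.53% upon challenge). Ctsl held 361 and 364 CPM in M-TC and 542 and 536 in M-noTC, and 455 and 445 against 679 and 655 upon challenge, higher by 0.57 ± 0.05 and 0.57 ± 0.05. Ctsh went the other way, at -0.57 ± 0.06 and -0.58 ± 0.06. Psap was lower as well, at 6661 and 6807 in M-TC against 5075 and 5244 in M-noTC (-0.38), and upon challenge (-0.43). Scarb2 held 162 and 170.0 CPM in M-TC and 126 and 125 in M-noTC (-0.40 ± 0.05). Atp6v1b2 was higher on noTC at steady state (0.21, adjusted p = 6.90e-04). Ctsc was lower on noTC upon challenge (-0.40 ± 0.05), at 1523 and 1633 against 1146 and 1244 CPM, but not at steady state (-0.06, adjusted p = 0.424). The number higher in M at steady state was 3 in each fit without 1 of the 4 libraries, and 5 members were lower without M-noTC replicate 1. Upon challenge 9 members were lower without M-TC-LPS replicate 1 or M-noTC-LPS replicate 2, and with library size 8 were higher and 9 lower.
In GM cells the lower members with the largest differences were Ppt1 (palmitoyl-protein thioesterase), at 165 and 169 CPM in GM-TC and 129 and 136 in GM-noTC (-0.33 ± 0.06), Ctss (-0.23) and Gla (alpha-galactosidase A, -0.20). The Ctss call was lost without GM-noTC replicate 1 (adjusted p = 0.057), and the Gla call without GM-TC replicate 2, GM-noTC replicate 1 or GM-noTC replicate 2. Upon challenge Naglu (alpha-N-acetylglucosaminidase) was lower (-0.26), at 85.4 and 83.1 CPM on TC and 67.5 and 73.6 on noTC. That call was lost without GM-TC-LPS replicate 1, GM-TC-LPS replicate 2 or GM-noTC-LPS replicate 1.

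The dish effect differed between growth factors for some of the same members. At steady state 3 members had a positive and 5 a negative difference of GM minus M (4.82% and 6.4% of all genes), and upon challenge 7 and 2 (6.87% and 3.71%). With library size the latter split was 4 and 9 (3.76% and 7.69% of all genes). Ctsh had the difference 0.56 ± 0.08 at steady state and 0.65 ± 0.08 upon challenge, Ctsl -0.47 ± 0.07 and -0.49 ± 0.07, Arsb -0.44 ± 0.09 and -0.52 ± 0.10, and Psap 0.34 ± 0.06 and 0.41 ± 0.06. The steady state count of 8 was 14 without GM-TC replicate 1 and 5 without any 1 of the GM-noTC, M-TC or M-noTC libraries. The LPS response did not pass a test of difference between dishes for any member in GM (0.192% positive and 0.591% negative of all genes), with 1 member at an unadjusted p under 0.05 in edgeR and none called by DESeq2. In M it did for 3, all negative (3.11% and 7.48%): Ctsc (-0.34 ± 0.07, adjusted p = 0.00276), Tfe3 (-0.32 ± 0.08, 0.014) and Atp6v1b2 (-0.23 ± 0.06, 0.0169). Of these only Ctsc passed without M-TC replicate 1, M-TC replicate 2, M-noTC replicate 1 or M-noTC replicate 2. The Tfe3 call was also lost without M-TC-LPS replicate 1 (adjusted p = 0.099) or M-noTC-LPS replicate 1 (0.053), and that of Atp6v1b2 without M-noTC-LPS replicate 2 (0.054). With library size 4 members had a positive and 1, Ctsc, a negative difference (6.11% and 3.88% of all genes). Those of Tfe3 and Atp6v1b2 did not pass (-0.22 and -0.13).

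Further genes of lysosome biogenesis and autophagy were taken from lists of 101 symbols, of which 99 were found and 96 tested. Upon LPS challenge 25 rose and 35 fell in GM-TC, 26.0% and 36.5% of the 96 (32.8% and 34.2% of all genes), and 33 and 31 in GM-noTC, 34.4% and 32.3% (33.6% and 34%). In M cells 41 rose and 35 fell on TC, 42.7% and 36.5% (37.6% and 36.4%), and 41 and 34 on noTC, 42.7% and 35.4% (36.4% and 35.9%). GM over M at steady state gave 44 higher and 27 lower on TC, 45.8% and 28.1% (32.6% and 28.9%), and 51 and 21 on noTC, 53.1% and 21.9% (31.4% and 30.7%). The dish at steady state gave 1 higher and 15 lower in GM, 1.04% and 15.6% (4.69% and 2.85%), and 7 and 34 in M, 7.29% and 35.4% (16.1% and 11.1%).
Sqstm1, the gene of the autophagy receptor p62, rose from 363 and 381 CPM in GM-TC to 1573 and 1501 in GM-TC-LPS and from 407 and 413 in M-TC to 3307 and 3135 in M-TC-LPS. Rnaset2b (a lysosomal ribonuclease) rose by 2.82 in GM-TC and 2.195 in M-TC, but it has a near-identical copy, Rnaset2a, so the split of reads between them is uncertain. Flcn (folliculin) and Fnip2, whose proteins act together on Rag GTPases at the lysosome in the control of TFEB, both fell in all 4. Flcn went from 61.7 and 64.2 CPM in GM-TC to 28.1 and 27.3 in GM-TC-LPS and from 74.4 and 74.0 in M-TC to 10.9 and 9.53 in M-TC-LPS. Fnip2 fell by 2.09 and 2.27 on the log2 scale in GM cells (TC and noTC) and by 2.72 and 2.73 in M cells. Sgsh (sulfamidase) fell in all 4 as well, from 65.6 and 64.6 CPM in M-TC to 9.55 and 9.65 in M-TC-LPS. With library size the log2 ratios of these 5 genes kept their signs.

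Acp5, Atp6v0d2 and Ctsk, which are known from osteoclasts, were the 3 with the largest GM excess under the naming rule. Acp5 (tartrate-resistant acid phosphatase) held 306 and 324 CPM in GM-TC against 6.86 and 6.88 in M-TC (5.52 ± 0.09 on the log2 scale). Atp6v0d2, the d2 subunit of V0, held 1346 and 1365 in GM-TC against 42.9 and 43.4 in M-TC (4.97 ± 0.06), while the member Atp6v0d1, its widely expressed counterpart, differed by 0.53. Ctsk (cathepsin K) held 71.3 and 76.7 in GM-TC against 5.98 and 5.09 in M-TC, and in M cells it was higher on noTC by 0.85 at steady state and 1.002 upon challenge. Sgsh and Slc11a1 (the NRAMP1 metal transporter) were lower in GM (-3.61 and -1.38 on TC). Rragb was listed among the lowest as well, but at 0 to 0.15 CPM in the GM libraries it lay near the floor of 3 counts. Galns was higher on noTC in M by 0.45 and 0.53, and Tpcn1 in GM by 0.48 and in M upon challenge by 0.28. Flcn was lower on noTC in GM (-0.22) and in M (-0.62 and -0.68), as were Sgsh (-0.56 and -0.49) and Ctsf (-0.46 and -0.56) in M.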

How the data were processed

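The 16 libraries were made from poly(A) mRNA and sequenced on an Illumina NovaSeq. The study's methods name HISAT2 for alignment and RSEM for quantification, and the submitters' processing notes list fastp 0.18.0, Bowtie2 2.2.8, StringTie 1.3.1, DESeq2 and edgeR. The genome build is not given in the sources used here. The authors deposited 1 table of RSEM expected counts per gene, of which 6.56% to 8.19% of the values in a library were not whole. They were rounded before testing. TMM factors lay between 0.778 and 1.39, and 3 counts corresponded to between 0.0954 and 0.171 CPM.

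Of 22287 genes, 16756 had a count and 12514 passed filterByExpr. edgeR 4.0.16 (R 4.3.3) fitted 1 quasi-likelihood model to the 8 groups, with 18 contrasts, Benjamini-Hochberg adjustment over all genes tested and a threshold of 0.05. The common dispersion was 0.00226 (biological coefficient of variation 4.75%). Alternatives were library size scaling, DESeq2 size factors, DESeq2 1.42.0, no filter, fits to the libraries of a contrast, a replicate block, leaving out each library, and subtraction of a share of the other libraries' mean from the noTC libraries at steady state (0.675% in GM and 0.600% in M), set on genes under 1 CPM in the matching TC libraries. Members and gene lists were chosen with earlier results of these data known. Named members had the largest changes among those called: 5 per direction for LPS and growth factor in all 4 comparisons, 3 per direction for each dish comparison and 3 per interaction, plus Tfeb, Tfe3, Lamp1, Cd68, Ctsd and Gpnmb. Further lysosomal genes were named 3 per direction, for LPS and growth factor by the same rule. For the dish they were taken from genes called in the same direction in more than 1 dish comparison and in the other direction in none. These were ranked by the median over the 4 dish comparisons. Lengths and coordinates are from GENCODE M21 (GRCm38) and promoters from RefSeq.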

Additional observations from a re-analysis of the deposited data

Results flagged for a closer look

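Differences in response between groups, tested as interactions, passed the adjusted threshold for 23 members (GM minus M in the LPS response on TC), 17 (on noTC), 3 (LPS response between dishes in M), 8 (dish effect at steady state) and 9 (dish effect upon challenge). The 24 values given here are those of the 3 largest in each, of Tfeb, Tfe3 and Gpnmb where they passed, and, named after their values were seen, of Ctsl upon challenge and Psap for the dish effect. The LPS response differed between GM and M on TC (GM minus M, log2) for Ctsc (-1.43), Atp6v1b2 (-1.09), Atp6v0a1 (-0.81), Tfeb (0.67), Tfe3 (-0.54) and Gpnmb (-0.23). On noTC it differed for Ctsc (-1.06), Atp6v1b2 (-0.88), Atp6v0a1 (-0.83) and Tfeb (0.62). With library size the Gpnmb difference on TC was 0.11 and that of Tfe3 was -0.20 (adjusted p = 0.065). The Gpnmb call was also lost without GM-TC-LPS replicate 2, M-TC replicate 1 or M-TC-LPS replicate 1.

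Between the dishes, the LPS response in M cells differed (noTC minus TC) for Ctsc (-0.34), Tfe3 (-0.32) and Atp6v1b2 (-0.23). The Tfe3 call was lost in 6 and the Atp6v1b2 call in 5 of the 8 fits that left out 1 library, and both were lost with library size.

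The dish effect differed between GM and M at steady state for Ctsh (0.56), Ctsl (-0.47), Arsb (-0.44), Psap (0.34) and Gpnmb (-0.25), and upon LPS challenge for Ctsh (0.65), Ctsc (0.53), Ctsl (-0.49), Psap (0.41), Arsb (-0.52) and Tfe3 (0.43). The Gpnmb call was lost with DESeq2 (adjusted p = 0.068), with library size (0.052) and without any 1 of the GM-noTC, M-TC and M-noTC libraries.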

How the results depend on the processing

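Scaling moved the counts most. With library size only, upon LPS challenge 3 members rose in each comparison and 44 (GM-TC), 42 (GM-noTC), 44 (M-TC) and 42 (M-noTC) fell. Of all genes 16.1% to 17.2% rose and 62.7% to 69.1% fell. GM over M at steady state gave 17 higher and 20 lower on TC (19.6% and 50.8% of all genes) and 19 and 19 on noTC (19.7% and 52.1%). The dish gave 3 lower in GM-LPS (0.927% of all genes), 3 higher in M (14.9%), and 8 higher and 9 lower in M-LPS (16.8% and 7.03%). The dish by LPS count in M was 5 (6.11% positive and 3.88% negative of all genes). Values of named members that changed sign with library size were, in LPS in GM-TC, Atp6v1h (-0.12), Npc2 (-0.11), Lamp1 (-0.39) and Cd68 (-0.27), and in GM-noTC the same 4 (-0.12, -0.048, -0.38 and -0.17). In M-TC they were Atp6v1h (-0.037), Npc2 (-0.19), Tfe3 (-0.80), Lamp1 (-0.61), Cd68 (-0.50), Ctsd (-0.81) and Gpnmb (-0.65), and in M-noTC Npc2 (-0.13), Lamp1 (-0.50), Cd68 (-0.50), Ctsd (-0.70) and Gpnmb (-0.60). Lamp1 in GM over M on noTC was -0.25. The GM minus M difference in LPS response on TC was 0.23 for Lamp1, 0.23 for Cd68, 0.25 for Ctsd and 0.11 for Gpnmb. The median of all genes moved between the scalings as well, and which scale is nearer to RNA per cell was not tested.

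Fits to the libraries of a contrast gave 8 lower in LPS in GM-TC, 1 lower in the GM dish comparison, 3 lower in GM-LPS, 25 lower in M and 6 for dish by LPS in M, and lost the calls of Gpnmb for LPS in M-noTC (adjusted p = 0.068) and of Ctss and Gla for the dish in GM (0.104 and 0.186). Without the expression filter 2 members were lower in GM-LPS, and DESeq2 size factors and DESeq2 each gave 3 higher for the dish in M. The cause of these moves was not tested. Leaving out 1 library gave 11 to 21 rising for LPS in GM-noTC, 7 to 11 lower for GM over M in noTC-LPS, 0 to 1 higher and 1 to 16 lower for the GM dish comparison, 0 to 1 lower in GM-LPS, 3 to 3 higher and 5 to 10 lower in M, 9 to 12 lower in M-LPS, 1 to 4 for dish by LPS in M and 5 to 14 for dish by growth factor at steady state. With DESeq2, 202 of the values of named members kept their direction and call, 4 lost the call and 2 gained it. Subtraction of the background moved no count by more than 1.5 times.

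Replicate numbers are not stated to pair the samples. Deviations of same-numbered libraries correlated between -0.064 and 0.020, and the fit with a replicate block left all 30 counts of members within 1.5 times and all 208 values of named members with the same direction and call. With 2 libraries a group, the spread is estimated from 8 residual degrees of freedom shared by all groups, and small differences of low genes such as Tfeb in the LPS libraries were imprecise.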
